A study of Mus musculus with 24 samples.

Results

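Arntl, Arntl2, Clock and Npas2 encode the activators of the mammalian circadian clock, and their RNA was followed over a day in mouse retinal pigment epithelium (RPE), a sheet of pigmented cells behind the photoreceptors that recycles retinal and digests shed outer segments. The 4 genes were taken by gene name, with no measured value in the rule, from 54532 genes in the deposited count table, and all 4 were among the 18065 genes tested. The study set out to examine daily regulation of genes for autophagy and lysosomes. RNA came from wild-type 129S1/SvlmJ mice on the Rpe65 Leu450 background, kept on a standard diet in a 12 h light and 12 h dark cycle with light onset at 7 am. There were 8 times, 0, 1, 3, 5, 6, 9, 15 and 16 h after light onset, with 3 mice at each and 24 libraries in all. The times from 1 to 9 h lay in the light and 15 h and 16 h in the dark. All groups shared strain, genotype and diet. The ages and sexes of the mice, and whether each library came from 1 eye or both, are not given in the sources used here.

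BMAL1, the product of Arntl, pairs with CLOCK or with the related NPAS2 into a bHLH-PAS transcription factor that binds E-boxes, whose core letters are CACGTG, and switches on the period, cryptochrome, Rev-erb and PAR bZIP genes. PER and CRY proteins then repress that activator, while Rev-erb proteins repress Arntl, Clock and Npas2 through ROR response elements, to which ROR proteins bind as activators. BMAL2, the product of Arntl2, is a paralogue of BMAL1 that can also pair with CLOCK. The RPE is known for its own clock and for a daily burst of outer segment uptake soon after light onset.

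Arntl (ENSMUSG00000055116) lies on chromosome 7 from 113207465 to 113314126 on the plus strand of mm10, and Arntl2 (ENSMUSG00000040187) on chromosome 6 from 146796055 to 146833529, also on the plus strand. Clock (ENSMUSG00000029238) lies on chromosome 5 from 76209868 to 76304792 on the minus strand, and Npas2 (ENSMUSG00000026077) on chromosome 1 from 39193731 to 39363236 on the plus strand. Arntl shares 33 of its exonic bases (0.439%) with the predicted gene Gm45355, and the other 3 genes share none with any annotated gene. The longest identical stretch between transcripts of any pair of the 4 genes was 18 bases, between Clock and Npas2.

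The DNA letters of the loop are shown because the members and their targets are tied together by them. RefSeq windows from 250 bases before to 50 bases after each annotated start (GRCm38.p6, 2 windows for Arntl, 1 for Arntl2, 3 for Clock and 1 for Npas2) were searched on both strands. In the lines below capitals mark the motif, letters run 5′ to 3′ on the gene's strand, and a match is a description of letters, not a site or a cause.
Arntl, ROR response element, chr7:113207528-113207557, plus strand: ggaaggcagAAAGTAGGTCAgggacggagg
Arntl, half-site AGGTTA, chr7:113207494-113207523, plus strand: tggtcggaaagtAGGTTAgtggtgcgacat
Clock, half-site AGGTCA read on the other strand, chr5:76303604-76303633, minus strand: agctttggcctcTGACCTgacagatgacag
Ciart, E-box, chr3:95882327-95882356, minus strand: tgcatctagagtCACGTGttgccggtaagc
Ciart, E-box, chr3:95882269-95882298, minus strand: cgcagggggaggCACGTGcagaaccgcacg
Cry1, E-box, chr10:85185097-85185126, minus strand: ggtgccggtggtCACGTGgggtgcatgccg

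The Arntl element begins 27 bases into the transcript from 1 of its 2 RefSeq starts, in exon 1 and the untranslated region of Arntl in GENCODE vM21. A ROR response element was present in 126 of 32851 windows (0.384%), and among the windows of the 4 activators and of the 14 further loop genes that had one, Arntl's was the only match. The half-site AGGTCA, which that element contains, was found in 16.3% of all windows and AGGTTA in 8.49%. Clock held AGGTCA at position -119 from the start in 1 of its windows, within the Clock gene but not in an exon, and Arntl2 held AGGTTA at position -227. The Npas2 window held none of the motifs searched, which says nothing about sites outside it. CACGTG, found in 7.15% of all windows, was in no window of the 4 activators and in windows of 5 of those 14 loop genes, namely Bhlhe41, Ciart, Cry1, Per1 and Tef. The D-box TTATGTAA, found in 0.938% of all windows, was in no activator window.

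Libraries held 14073440 to 17492470 counts. The third mice of 15 h and of 6 h differed from the other 22 libraries, lying at 199.9 and 49.3 on the first principal component (38.2% of variance) where the others lay between -25.1 and -3.5, so results are also given without this pair. All 10 RPE markers were detected, with a summed level of 34751 to 49907 CPM (a gene's count over the TMM-scaled total of its library) in the 22 libraries and of 54240 at 6 h and 114699 at 15 h in the pair. The 5 red blood cell markers summed to 399.5 to 1925 CPM in the 22 libraries and to 3326 and 8767 in the pair. All 10 rod markers were detected as well, and their sum was highest at 0 h (2345 to 3755 CPM) and, by its median, lowest at 9 h (305 to 888). In bulk RNA, fewer cells of a type and less RNA per cell cannot be told apart.

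Clock was the most abundant of the 4 activators per kilobase of gene length, followed by Arntl, Npas2 and Arntl2. At 0 h their mean levels were 7.61, 3.79, 2.10 and 0.125 CPM per kilobase, and at 9 h they were 4.44, 0.911, 0.641 and 0.106. This order of the 4 levels held in all 24 libraries. The gene length used is the summed length of all annotated exons (13727 bases for Clock, 7523 for Arntl), and it sets the gap between Clock and Arntl. With the longest coding transcript (9744 and 2976 bases), Clock's level at 0 h was 1.12 times Arntl's in place of 2.01 times, and the order held in 23 of 24 libraries.

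**Figure D1:**
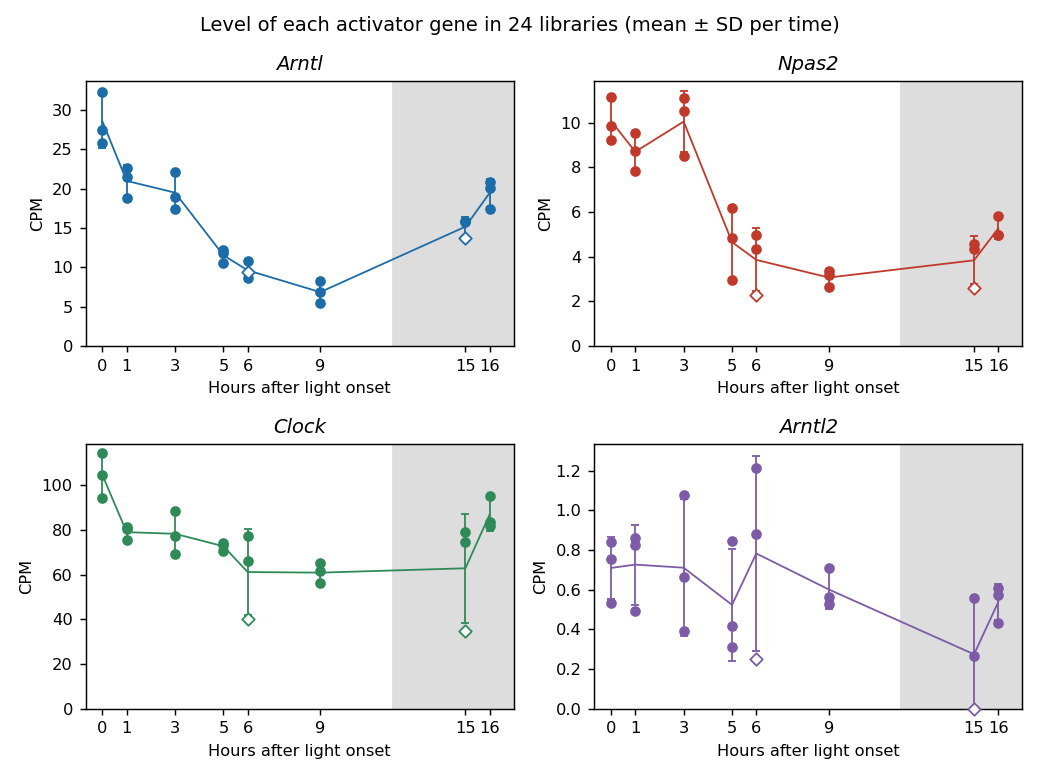
Level of each activator in every library (CPM, vertical axis, a separate linear scale for each gene) against hours after light onset. Filled points are mice, lines join the means of 3 mice, bars are SD, grey marks the dark phase, and open diamonds are mouse 3 of 6 h and mouse 3 of 15 h. Arntl and Npas2 are low at 9 h, Clock changes less in proportion, and Arntl2 is at most 1.22 CPM.

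Arntl, the activator shared by the pairs with CLOCK and NPAS2, fell through the light phase and was higher again in the dark. In mice 1, 2 and 3 its level was 32.3, 27.5 and 25.8 CPM at 0 h, 18.8, 22.6 and 21.5 at 1 h, and 18.9, 17.4 and 22.1 at 3 h. It was 11.8, 12.3 and 10.5 CPM at 5 h, 10.8, 8.62 and 9.45 at 6 h, and 5.44, 8.29 and 6.83 at 9 h. In the dark it was 15.9, 15.8 and 13.8 CPM at 15 h and 17.4, 20.1 and 20.8 at 16 h. Every mouse at 0 h was above every mouse at any other time, and every mouse at 9 h was below all others. Ranked by mean, the times ran 0, 1, 3, 16, 15, 5, 6 and 9 h. Neighbours overlapped at 1 h and 3 h, at 3 h and 16 h, and at 5 h and 6 h, while the other 4 neighbouring pairs lay apart.

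Arntl varied over the 8 times (adjusted p = 5.99e-06), and Npas2 was the only other activator that did (adjusted p = 0.00282). That is 2 of 4 genes, beside 1.08% of all genes tested. In the 22 libraries Clock was called too, 3 of 4 beside 16.0% of all genes, with adjusted p-values of 4.32e-08 for Arntl, 8.1e-06 for Npas2 and 0.000166 for Clock.

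From 0 h to 9 h Arntl fell by 2.06 on the log2 scale (SE 0.16, adjusted p = 8.39e-07), with means of 28.5 ± 3.39 and 6.85 ± 1.43 CPM (SD, n = 3 mice each). From 9 h to 16 h it rose by 1.503 (SE 0.16, adjusted p = 7.55e-05), to 19.4 ± 1.78 CPM. It did not reach its 0 h level at 16 h. That difference of -0.55 (SE 0.15) had no overlap between mice but missed the threshold in 24 libraries (adjusted p = 0.236) and passed it in 22 (0.0321). The difference between 3 h and 0 h was also -0.55 (SE 0.15, adjusted p = 1), again with no overlap, and 0.0773 in 22 libraries. At 3 h against 0 h no gene at all passed in 24 libraries with edgeR's quasi-likelihood test. There 551 of the 18065 genes had an unadjusted p under 0.05, a smaller share than the 0.05 that evenly spread p-values would give. DESeq2 called 5 genes and limma-voom 0.

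Npas2, the alternative partner of BMAL1, held a plateau over the first hours of light and was lower at every later time. In mice 1, 2 and 3 it was at 11.2, 9.22 and 9.88 CPM at 0 h, 9.56, 7.84 and 8.72 at 1 h, and 10.5, 8.52 and 11.1 at 3 h. It was at 6.18, 4.83 and 2.96 CPM at 5 h, 4.35, 4.97 and 2.27 at 6 h, and 3.19, 3.38 and 2.65 at 9 h. In the dark it was at 4.35, 4.57 and 2.61 CPM at 15 h and 4.98, 5.83 and 4.99 at 16 h. All 9 mice of 0, 1 and 3 h lay above all 15 mice of the other times, and within each of these sets of times the mice overlapped between neighbours in the order of means. The lowest single values, at 6 h and 15 h, came from the pair of libraries that stood apart.

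Npas2 fell by 1.71 on the log2 scale from 0 h to 9 h (SE 0.28, adjusted p = 0.00671), from 10.1 ± 0.983 to 3.07 ± 0.377 CPM. Its difference between 3 h and 0 h was -0.0038 (SE 0.26, adjusted p = 1). From 9 h to 16 h the difference was 0.78 (SE 0.28), with every mouse at 16 h above every mouse at 9 h. It missed the threshold in 24 libraries (adjusted p = 0.273) and passed in 22 (0.017). At 16 h Npas2 was at 5.27 ± 0.489 CPM, with no mouse reaching a 0 h value, a difference from 0 h of -0.93 (SE 0.27) with an adjusted p of 0.282 in 24 libraries and 0.0104 in 22.

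Clock, the partner with histone acetyltransferase activity, was highest at 0 h and had its lowest mean at 9 h, with smaller steps than Arntl on the log2 scale. In mice 1, 2 and 3 its level was 114, 105 and 94.3 CPM at 0 h, 81.2, 80.3 and 75.6 at 1 h, and 69.1, 77.5 and 88.3 at 3 h. It was 74.2, 73.3 and 70.6 CPM at 5 h, 77.4, 66.1 and 40.0 at 6 h, and 56.1, 61.4 and 65.2 at 9 h. In the dark it was 74.6, 79.2 and 34.9 CPM at 15 h and 81.9, 83.5 and 95.2 at 16 h. The values of 40.0 and 34.9 belong to the pair that stood apart and are the lowest of all 24. Leaving them out moves the mean from 61.2 ± 19.2 to 71.8 ± 8.03 CPM at 6 h and from 62.9 ± 24.4 to 76.9 ± 3.25 at 15 h (n = 2 each). Among neighbours in the order of means, 16 h and 1 h lay apart and the other 6 pairs overlapped.

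Clock's calls depended on the pair. Its difference from 0 h to 9 h was -0.78 in 24 libraries (SE 0.23, adjusted p = 0.143) and -0.78 in 22 (SE 0.09, adjusted p = 6.42e-06), from 104.5 ± 10.1 to 60.9 ± 4.54 CPM with no overlap between mice. From 9 h to 16 h it was 0.51 (SE 0.23, adjusted p = 0.417) and, in 22 libraries, 0.52 (SE 0.09, adjusted p = 0.000987). None of the 0, 9 and 16 h libraries is in the pair, which enters these comparisons through the spread shared by all times. Between 3 h and 0 h the difference was -0.42 (SE 0.23, adjusted p = 1), and it passed in 22 libraries (adjusted p = 0.0402). Clock's difference between 16 h and 0 h was -0.27 (adjusted p = 1, and 0.136 in 22 libraries).

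**Figure D2:**
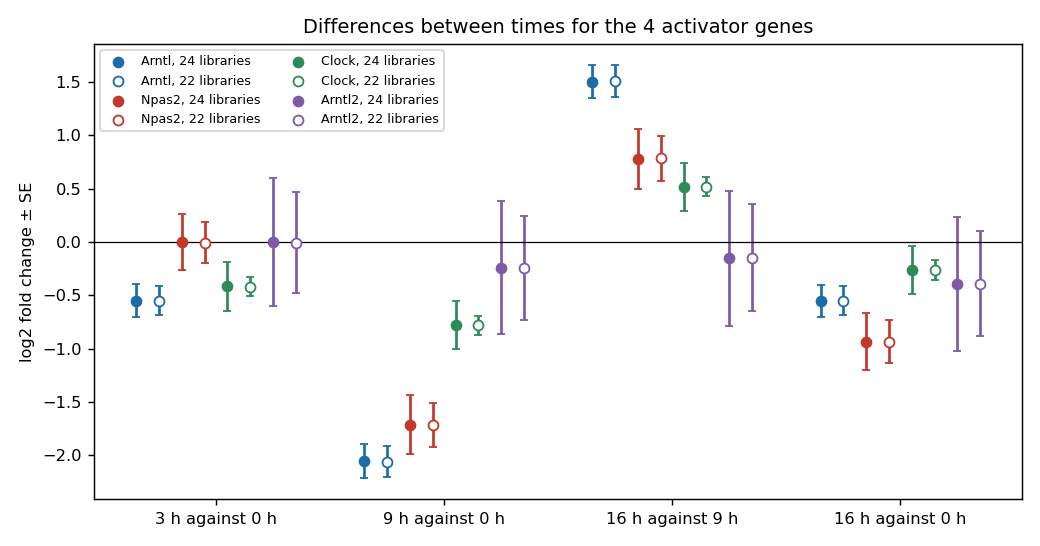
Log2 fold change (vertical axis) of the 4 activators in 4 comparisons of times (horizontal axis), with bars of 1 standard error. Filled points are fits to all 24 libraries and open points fits to the 22 without the pair. Arntl and Npas2 lie furthest below 0 at 9 h against 0 h, and the Clock estimates hardly move between the fits while their errors shrink.

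Counting members at 9 h against 0 h, 2 of 4 fell in 24 libraries (Arntl and Npas2), beside 0.504% of all genes, and 3 of 4 fell in 22, beside 4.79%. The groups did not overlap, with 9 h lower, for Arntl, Clock and Npas2, as for 13.9% of all genes. From 9 h to 16 h 1 of 4 rose in 24 libraries, beside 0.172% of all genes, and 3 of 4 in 22, beside 5.76%. The same 3 genes had no overlap in that direction, as did 14.6% of all genes. At 16 h against 0 h none of the 4 passed in 24 libraries (0.116% of all genes did) and 2 were lower in 22, beside 0.902%, with no overlap for Arntl and Npas2 (9.88% of all genes). At 3 h against 0 h none passed in 24 libraries (0.0% of all genes) and Clock was lower in 22 (0.221%), with no overlap for Arntl and Clock (6.7% of all genes). All comparisons with 0 h use 1 set of 3 libraries there and are not independent.

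Rod markers, at 2345 to 3755 CPM at 0 h, stood at 305 to 888 at 9 h and 347 to 1394 at 16 h. The 7 skeletal muscle markers stood at 515 to 646 CPM at 0 h and 176 to 464 at 9 h. The 8 choroid endothelium markers ran the other way, at 405 to 654 CPM at 0 h, 579 to 892 at 9 h and 342 to 456 at 16 h. The 6 melanocyte markers stood at 5751 to 6889 CPM at 0 h, 4667 to 6077 at 9 h and 5666 to 7251 at 16 h. The part of muscle, endothelial and melanocyte RNA in the results was not tested. With rod markers added to the model as a covariate, Arntl was still lower at 9 h than at 0 h (adjusted p = 0.000459). Npas2 was then not called in 24 libraries (-1.81, adjusted p = 0.102) and was called in 22 (adjusted p = 0.00723). With that covariate in 22 libraries, no activator was called at 3 h or at 16 h against 0 h.

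Arntl2 was close to the limit of what these libraries could measure, with 0 to 19 reads each (median 9.5). At 0 h its level was 0.839, 0.534 and 0.755 CPM, at 9 h 0.563, 0.711 and 0.530, and at 16 h 0.607, 0.572 and 0.434. The lowest mean was 0.275 CPM, at 15 h, and the highest 0.782, at 6 h. Mice overlapped between all neighbouring times in the order of means. Mouse 3 of 15 h had no Arntl2 read, which allows up to 0.27 CPM (3 counts, counting error only). Neither the test over time (adjusted p = 0.778) nor that of a 24 h component (adjusted p = 0.515) passed. Arntl2 made up 3.18 ± 0.62% of the summed Arntl and Arntl2 level per kilobase at 0 h, 9.41 ± 5.23% at 6 h and 10.5 ± 1.39% at 9 h. At 6 h the mice outside the pair were at 12.9% and 11.9% and the third at 3.41%, so 6 h and 9 h overlapped.

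Fitted to a 24 h cosine, Arntl reached its maximum 21.2 ± 0.148 h after light onset and Npas2 at 22.7 ± 0.37 h, with peak-to-trough ratios on the log2 scale of 2.22 ± 0.17 and 2.03 ± 0.18 (± jackknife SE over 24 libraries, adjusted p = 1.18e-08 and 8.7e-05). Clock's ratio was 0.79 ± 0.16 with a peak at 21.6 ± 0.851 h, and it missed the threshold in 24 libraries (adjusted p = 0.0933). Those 2 of 4 genes stand beside 1.67% of all genes. In 22 libraries Clock passed with a ratio of 0.70 (adjusted p = 0.000309), and 3 of 4 stand beside 6.36%. Of 24 fits that left out 1 library each, the one without mouse 3 of 15 h called Clock (adjusted p = 0.0024). All these peaks lie in hours after 16 h that were not sampled and rest on the shape of the cosine, which the SE does not cover.

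Npas2 and Arntl did not keep a constant ratio through the day. The fitted Npas2 peak was 1.44 ± 0.316 h later than Arntl's (jackknife SE of the difference), and the peak-to-trough ratios differed by -0.19 ± 0.213. The log2 difference in CPM, Npas2 minus Arntl, was -1.52, -1.56 and -1.37 in the mice at 0 h, -0.84, -1.02 and -0.98 at 3 h, and -1.84, -1.77 and -2.35 at 15 h. Mice at 3 h were all above those at 0 h and those at 15 h all below. Over the 8 times the means spanned 1.04, from -0.95 ± 0.0982 at 3 h to -1.98 ± 0.316 at 15 h (SD, n = 3). Without mouse 3 of 15 h, or without the pair, the lowest mean was at 16 h. A permutation test of the time labels, on the upper tail of the F ratio between times, gave p = 0.022 (adjusted over the 2 ratios, 0.022), 0.00913 in 22 libraries (adjusted), and 0.0595 without mouse 3 of 15 h (adjusted), where the span was 0.91.

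Clock and Arntl did not keep a constant ratio either. Clock's CPM stood above Arntl's by 1.82, 1.93 and 1.87 on the log2 scale in the mice at 0 h, by 3.34, 2.87 and 3.23 at 9 h, and by 2.22, 2.05 and 2.19 at 16 h. All mice at 9 h were above all mice at 0 h and 16 h, and they overlapped those at 6 h. The means spanned 1.28, from 1.87 ± 0.0539 at 0 h to 3.15 ± 0.245 at 9 h (same permutation test, p = 0.00046, adjusted 0.00092). In 22 libraries p was 1e-05, the smallest that 100000 resamples can give. The fitted Clock ratio was smaller than Arntl's by a log2 difference of -1.44 ± 0.177, and the peaks lay 0.32 ± 0.785 h apart. Per kilobase, Clock's level was 2.01 ± 0.0759 times Arntl's at 0 h and 4.98 ± 0.827 times at 9 h, or 1.12 and 2.78 times with the longest coding transcript.

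**Figure D3:**
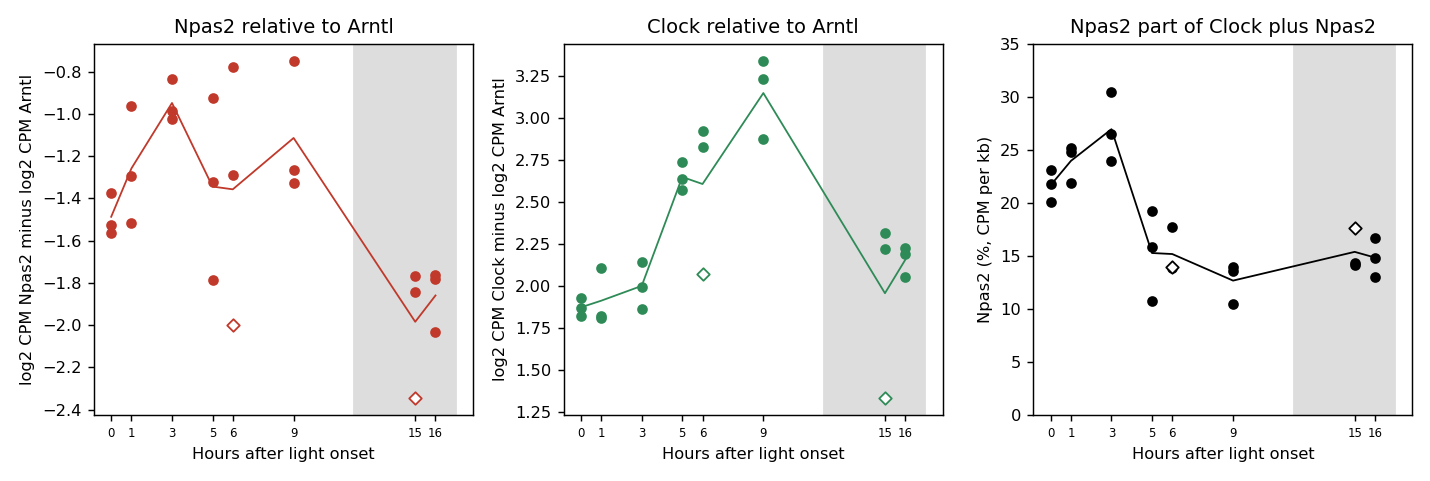
Difference in log2 CPM between Npas2 and Arntl and between Clock and Arntl (vertical axes), and the Npas2 percentage of the summed Clock and Npas2 level per kilobase, against hours after light onset. Points are mice, lines join means, grey marks the dark phase and open diamonds are the pair of libraries that stood apart. By mean, Npas2 relative to Arntl is highest at 3 h and lowest at 15 h (at 16 h without the pair). Clock relative to Arntl is highest at 9 h.

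The balance between the alternative partners moved with Npas2. Npas2 made up 21.7 ± 1.48% of the summed Clock and Npas2 level per kilobase at 0 h, 23.97 ± 1.85% at 1 h and 27.0 ± 3.27% at 3 h. It made up 15.3 ± 4.30% at 5 h, 15.2 ± 2.20% at 6 h and 12.7 ± 1.95% at 9 h, then 15.4 ± 1.98% at 15 h and 14.9 ± 1.81% at 16 h. Every mouse of 0, 1 and 3 h was above every mouse of the other times (lowest 20.1%, highest of the others 19.3%). With the longest coding transcripts the shares ran from 22.9% at 3 h to 10.4% at 9 h. These are shares of RNA and not of protein.

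Of 17 further loop genes, all tested, 11 passed the test of a 24 h component, beside 1.67% of all genes, and 9 that over time, beside 1.08%, in 24 libraries. In 22 libraries 12 and 15 did, beside 6.36% and 16.0% of all genes. The list's median log2 peak-to-trough ratio was 0.92, against 0.33 for all genes tested (0.95 and 0.25 in 22 libraries). From 0 h to 9 h, as Arntl and Npas2 fell, 6 of the 17 rose, beside 0.244% of all genes, and 1 fell, beside 0.504%. The 6 were the repressors Per1 (2.05, adjusted p = 1.07e-06), Per2 (1.70, 0.00706), Cry2 (0.45, 0.0406) and Ciart (2.37, 0.000462) and the PAR bZIP factors Dbp (1.25, 0.00568) and Tef (0.79, 0.00706), given as log2 fold change and adjusted p. The gene that fell was Nfil3, a bZIP repressor that binds the same D-boxes as the PAR bZIP factors (-1.12, adjusted p = 0.0436). In 22 libraries 10 of the 17 rose and 2 fell, beside 631 and 866 of the 18065 genes tested. With the rod covariate in 24 libraries only 3 genes in all rose, so at most 3 of the 6 named could still pass. Reads of Dbp, which shares 18.0% of its exonic bases with Sphk2, are less certain. The same holds for Bhlhe41 (19.0%, with Gm43909) and Nr1d1 (8.55%, with Thra).

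The Rev-erb genes, whose products repress through ROR response elements, had fitted peaks in the light. Nr1d1, which encodes Rev-erb alpha, peaked at 5.02 h (ratio 1.93) and Nr1d2, its relative Rev-erb beta, at 8.19 h (0.83). Of the activators at these elements, Rora (ratio 0.10, adjusted p = 0.797) and Rorb (0.34, 0.437) did not pass, nor did they in 22 libraries (0.281 and 0.282). In 22 libraries Rorb did vary over time (adjusted p = 0.0143), as did 16.0% of all genes. Its log2 fold change there was -0.49 from 0 h to 9 h (adjusted p = 0.00404) and 0.45 from 9 h to 16 h (0.00764). Rora did not vary over time there (0.0726), and rose by 0.24 from 9 h to 16 h (0.0415). Other genes with a 24 h component had fitted peaks at 7.01 h (Ciart, ratio 3.63), 7.55 h (Dbp), 8.45 h (Cry2), 9.62 h (Per2), 10.3 h (Tef), 10.7 h (Hlf), 15.3 h (Cry1) and 19.4 h (Nfil3, 1.43). Among these named genes with a 24 h component, Nfil3's fitted peak was the closest to those of Arntl and Npas2. That of Rorb, which did not pass, was at 21.3 h.

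**Figure D4:**
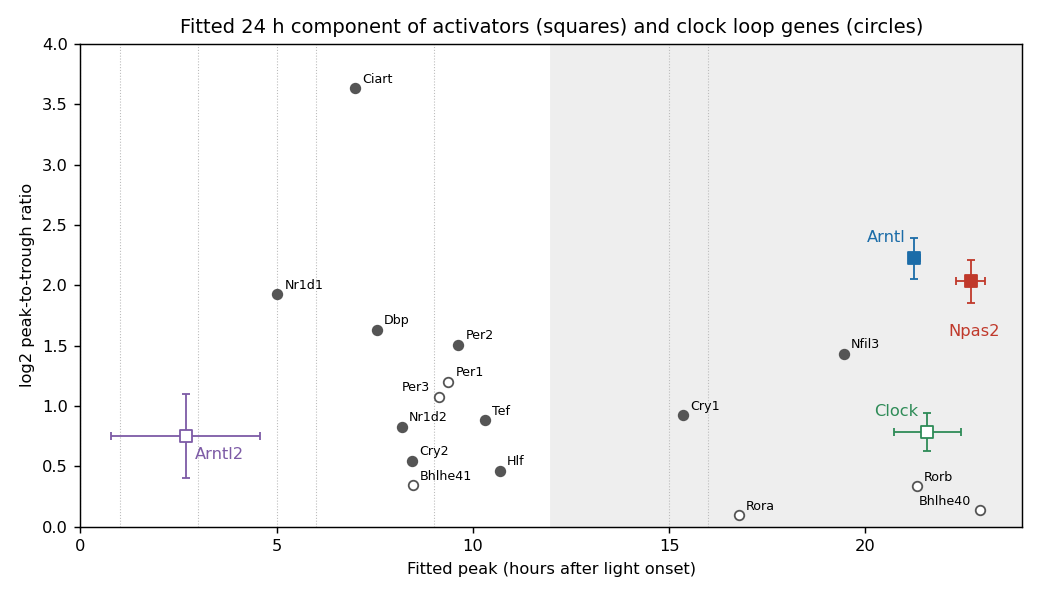
Fitted log2 peak-to-trough ratio (vertical axis) against fitted peak time in hours after light onset (horizontal axis) for the 4 activators (squares, with jackknife SE bars) and 16 other clock loop genes (circles). Filled symbols passed an adjusted p of 0.05, dotted lines are sampled times and grey is the dark phase. Arntl, Npas2 and Clock lie between 21.2 and 22.7 h, and the called loop genes with peaks from 5.02 to 10.7 h lie in the light.

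Across the 22 libraries, which share times of day, Arntl's log2 CPM correlated with that of Clock at r = 0.879 and of Npas2 at 0.833 (0.656 and 0.80 over all 24), and Npas2's with Clock's at 0.649. With Arntl2 Arntl gave 0.0496. Among the loop genes the values for Arntl ran from -0.931 (Tef), -0.881 (Per3) and -0.87 (Nr1d2) to 0.717 (Nfil3), with Cry1, whose fitted peak falls in the early dark, at -0.0405. These coefficients describe libraries of 8 times with 2 or 3 mice each, and no test was made of them.

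The activators belong to the bHLH-PAS family. Of 15 other bHLH-PAS genes, which include the hypoxia factors and the aryl hydrocarbon receptor, 13 were tested, and none passed the test over time or that of a 24 h component, beside 1.08% and 1.67% of all genes (median ratio 0.20, against 0.33 for all genes). Hif1a, a hypoxia-inducible factor, fell by 0.53 from 0 h to 9 h (SE 0.12, adjusted p = 0.0466), 1 of 13 beside 0.504% of all genes. Reads of Hif1a are less certain, as it shares 8.11% of its exonic bases with Gm15283 and Gm49321. In 22 libraries Hif1a, Ncoa1 and Ncoa3 varied over time, 3 of 13 beside 16.0% of all genes, and none had a 24 h component, beside 6.36%. The list's median ratio in 22 libraries was 0.244, against 0.245 for all genes. Arnt, the partner of the hypoxia factors and closest in name to Arntl, had mean levels of 49.6 CPM (0 h) and 53.8 CPM (9 h) and a fitted ratio of 0.14.

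A further list held 17 genes. Most of their products modify or bind the activators or proteins of the loop, and Wee1 is among the exceptions. Of the 17, among them kinases, acetyltransferases and ubiquitin ligase subunits, none passed either test in 24 libraries (median ratio 0.20). That stands beside 1.08% and 1.67% of all genes. In 22 libraries 3 varied over time (Wee1, Cipc and Gsk3b), beside 16.0% of all genes, and 2 had a 24 h component, beside 6.36%. Cipc, which binds CLOCK and inhibits it, had its fitted peak there at 10.1 h (ratio 0.52, adjusted p = 0.00088, and 0.153 in 24 libraries). Wee1, a cell cycle kinase and known clock target, had its fitted peak at 13.7 h (ratio 0.78, adjusted p = 1.27e-06, and 0.0527 in 24).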

How the data were processed

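Total RNA of 24 mouse RPE samples was sequenced, and the library kit given in the labels keeps no strand information. The authors deposited 1 table of raw counts of reads per gene with gene lengths. STAR, HTSeq and mm10 are listed in the submitters' processing notes. Versions, settings and annotation are not given in the sources used here. For the 4 genes, deposited lengths equal the summed exon lengths in GENCODE vM21. Column names give the hour of day and mouse, and were mapped to times through light onset at 7 am. Replicates are separate mice, per the series' design text, and no pair of libraries among 276 differed by less than counting noise (lowest chi-square per degree of freedom 6.08).

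Genes were kept by filterByExpr (minimum count 10) and tested in edgeR 4.0.16 (R 4.3.3) with TMM scaling, glmQLFit with robust priors and glmQLFTest. Benjamini-Hochberg adjustment ran over all 18065 genes with a threshold of 0.05, and all adjusted p-values come from this test unless named otherwise. Models held a mean per time, or the cosine and sine of 24 h. The filter of all 24 libraries was kept where libraries were left out. Ratios between genes used log2 CPM (prior count 2) and permutation tests of the F ratio with 100000 resamples. DESeq2 1.42.0 and limma 3.58.1 (voom) were alternatives. The edgeR tests over time and of a 24 h component were tried on simulated counts. The rod covariate is the rod markers' level per library.

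The named genes were the 4 activators, list members called in the 24 h test, and, as 5 each, the genes whose log2 CPM over the 22 libraries correlated most with Arntl, Npas2 or Clock and most inversely with Arntl, among 13863 genes whose mean reached 1 CPM. Per1, Per3, Rora, Rorb, Hif1a, Ncoa1, Ncoa3, Arnt, Cipc, Wee1 and Gsk3b were named after their values were seen. The values of 1 clock loop gene, which is in the list's counts, are not reported here. The members and lists were chosen with earlier results of these data known. Replicate numbers name mice and were not used to pair them in the main analysis. Depth limits Arntl2 most, with a median of 9.5 reads per library.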

Additional observations from a re-analysis of the deposited data

How the results depend on the processing

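Arntl and Npas2 passed the test over time in all 34 alternatives and the 24 h test in all 36, with peak-to-trough ratios of 2.03 to 2.29 and 1.80 to 2.14. With the 2 unusual libraries left out, the count of the 4 activators called went from 0 to 1 at 3 h against 0 h. It went from 1 to 3 at 16 h against 9 h and from 0 to 2 at 16 h against 0 h. In the last comparison DESeq2 called 1 in 24 libraries (Arntl, adjusted p = 0.0335). With the rod covariate in 22 libraries the counts were 0, 3 and 0 in the same order. Calls over all genes in the same comparisons went from 0 to 55, from 64 to 1991 and from 21 to 405 without the pair. With the rod covariate the count of activators at 9 h against 0 h went from 2 to 1, and that of all genes from 135 to 6. Leaving out single libraries gave spans of 0.91 to 1.15 for Npas2 relative to Arntl and 1.18 to 1.41 for Clock relative to Arntl, and the first missed the threshold without mouse 3 of 15 h. The Npas2 difference at 3 h against 0 h, near 0, turned positive without scaling factors (0.026), with the replicate block (0.0086) and with the rod covariate in 22 libraries (0.056), and ran from -0.080 to 0.10 with 1 mouse left out (0.075 without mouse 1 of 0 h). Clock's 24 h component also passed with DESeq2 (adjusted p = 0.0296) and without the 15 h and 16 h libraries (0.028), and without the 0 h libraries its adjusted p was 0.523. The cause was not tested.

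Over all genes, calls ran from 118 to 2882 (195 in the main analysis) over time, 135 to 1149 (302) for 24 h, 0 to 55 (0) at 3 h against 0 h, 6 to 1497 (135) at 9 h against 0 h, 7 to 1991 (64) at 16 h against 9 h and 7 to 405 (21) at 16 h against 0 h. Most of these extremes came without the pair that stood apart or with 1 mouse fewer. Deviations of mice with the same number had a mean r of 0.025 (71 pairs, -0.317 to 0.390), beside -0.0046 for other pairs (-0.329 to 0.375). No test was made of these values, and the main analysis did not pair mice by number. A replicate block changed no call of an activator (2, 2, 0, 2, 1 and 0 called, the ratio tests at adjusted p = 0.00843 and 0.00198). It left 143, 266, 1, 87, 39 and 23 calls over all genes in the order above.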

Other observations

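Outside the clock loop, the genes whose log2 CPM followed Arntl most closely over the 22 libraries were Acaca (r = 0.902), Pcdh18 (0.898), St3gal1 (0.898), Cmtm6 (0.896) and Rhoj (0.894). Acaca encodes acetyl-CoA carboxylase, which makes the malonyl-CoA for fatty acid synthesis, and its fitted peak was at 20.98 h with a log2 ratio of 0.64. The genes that ran most opposite to Arntl were Tef (-0.931), Rnf215 (-0.900), Por (-0.890), Per3 (-0.881) and Eci2 (-0.873). Por encodes the reductase that feeds electrons to microsomal cytochromes P450, and Eci2 an isomerase of fatty acid oxidation. Their fitted peaks lay at 9.31 and 10.5 h, and in 24 libraries Por passed the 24 h test (adjusted p = 0.0448) and Eci2 did not (0.236).

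The closest to Npas2 were Emilin3 (0.854), Sh3gl2 (0.848), Top1mt (0.842), Tmem132a (0.839) and Ntm (0.836). For Clock they were Nt5e (0.903), Efr3a (0.900), Nedd4 (0.898), Slc5a3 (0.885) and Arntl itself (0.879). These are the top 5 of 13863 genes ranked by likeness, and the order was not firm. Over all 24 libraries 1 of the 5 for Arntl, 3 of the 5 for Npas2 and 1 of the 5 for Clock stayed in the top 5, and with Spearman's rho 3, 2 and 2 did. Of the 5 most opposite to Arntl, 1 stayed over all 24 libraries and 3 with Spearman's rho. The points share times of day and libraries, and no test was made.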
